A study of Mus musculus with 27 samples.

Results

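The comparison described here set C9-BACexp mice against C57BL/6J mice when both genotypes had received the Cas13 nuclease with crRNA-13. Its 9 libraries, 6 from C9-BACexp mice and 3 from C57BL/6J mice, were chosen by genotype and treatment from the 27 libraries of the series, and each library came from 1 mouse. The C9-BACexp mice (replicates 1, 2, 3, 4, 6 and 7) carry a bacterial artificial chromosome with the full human C9ORF72 gene and its G4C2 repeat expansion, in addition to mouse C9orf72. The C57BL/6J mice (replicates 1, 2 and 5), which the study describes as littermates of the C9-BACexp mice, lack the transgene. All 9 were 6 weeks old when their motor cortex was injected with 2 PHP.eB vectors, 1 encoding RfxCas13d-N2V8, a high-fidelity form of the RNA-guided nuclease RfxCas13d, with crRNA-13, and the other encoding EGFP-KASH, a fluorescent tag anchored in the nuclear envelope. EGFP-KASH nuclei were sorted 2 months later, at least 15000 per sample, and their total RNA was sequenced after depletion of ribosomal RNA. Because the nuclease and the tag came from separate vectors, not every sorted nucleus need have held the nuclease, and the nuclei were mostly but not only neuronal. The labels give neither litter, sex nor batch for single mice. Beside this comparison stand 2 more of the same genotypes, with a non-targeted crRNA (NTG, 6 C9-BACexp and 5 C57BL/6J libraries) and with EGFP-KASH only (3 C9-BACexp and 4 C57BL/6J libraries), which share no library with it but were fitted in the same model. The labels of the NTG mice name the nuclease RfxCas13d, where the study's own descriptions give RfxCas13d-N2V8 for them, so whether crRNA-13 and NTG mice received the same form of it is not settled by the sources used here.

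Families with amyotrophic lateral sclerosis (ALS) or frontotemporal dementia (FTD) often carry an expanded G4C2 repeat in C9ORF72. The gene is transcribed from alternative first exons, and the repeat lies in the intron between exons 1a and 1b, so that it is contained in the precursors of transcript variants V1 and V3, which start at exon 1a, and not in that of V2, which starts at exon 1b. crRNA-13 was designed to direct the nuclease to the exon 1a-containing RNA and to spare V2. Interferons are secreted signals of antiviral defence: on binding their receptors they act through JAK kinases and transcription factors of the STAT and IRF families to raise a large set of effector genes, and cytosolic sensors of nucleic acids such as RIG-I and MDA5 drive their production. In brain this program is run by microglia, astrocytes, vascular cells and also neurons.

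Of the gene lists examined, the interferon-stimulated effectors held the most called genes, and promoters of 7 interferon-program genes are shown first because they carry the motif to which the transcription factor complex of type I interferon signaling is known to bind. The sequences are RefSeq windows on GRCm38.p6 that run from 250 bases before to 50 bases after each gene's start, of which only the stretch with the motif is printed, 5′ to 3′ on the strand of the gene. Capitals mark matches to the interferon-stimulated response element core GAAANNGAAA, searched on both strands with overlapping matches allowed, which reads TTTCNNTTTC on the other strand. The 2 matches of Ifit3 start 156 and 122 bases before the gene start, those of Ifit3b 188 and 154 bases, those of Ifit1 104 and 85 bases, and those of Oas1g 18 and 12 bases, while the single matches of Rsad2, H2-T22 and Stat2 start 120, 191 and 222 bases before it.
Ifit3, chr19:34583353-34583436, plus strand: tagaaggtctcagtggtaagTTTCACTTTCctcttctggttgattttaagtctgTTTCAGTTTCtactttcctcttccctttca
Ifit3b, chr19:34607749-34607832, plus strand: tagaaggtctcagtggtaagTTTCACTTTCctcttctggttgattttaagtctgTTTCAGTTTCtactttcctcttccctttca
Ifit1, chr19:34640765-34640833, plus strand: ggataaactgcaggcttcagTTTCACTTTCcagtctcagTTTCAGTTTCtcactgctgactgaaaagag
Rsad2, chr12:26456543-26456592, minus strand: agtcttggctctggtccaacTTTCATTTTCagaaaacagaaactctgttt
Oas1g, chr5:120887614-120887651, minus strand: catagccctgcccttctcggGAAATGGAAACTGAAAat
H2-T22, chr17:36042904-36042953, minus strand: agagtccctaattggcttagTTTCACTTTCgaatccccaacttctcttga
Stat2, chr10:128270256-128270305, plus strand: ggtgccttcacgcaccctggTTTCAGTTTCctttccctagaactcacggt

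The stretches of Ifit3 and Ifit3b carried identical letters, and these neighbouring genes are near-copies whose reads the counting may have split between them. Over all promoter windows, 1131 of 32851 (3.44%) held the motif, and among the genes tested here that had a window, 601 of 16297 (3.69%) did. Of the interferon-stimulated effectors tested, 24 of 44 with a window held it (54.5%), and of those effectors called lower in C9-BACexp mice, 7 of 15 (46.7%). Among the genes called lower outside the interferon lists the count was 5 of 79 (6.33%), and among the genes called higher 2 of 65 (3.08%). These shares describe letters in a window and not binding.

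The 9 libraries held between 21784030 and 36028217 expected counts, and their gene levels correlated with each other at a Spearman's rho across genes of 0.933 to 0.97. Rbfox3, which encodes the neuronal marker NeuN, stood at 833 to 1652 CPM (counts scaled to the library total) in all 9. Libraries that stood apart are named here because many results touch them. C9-BACexp replicates 1 and 2 had the highest levels of the myelin gene Mbp, at 1704 and 972 CPM, against 301 to 437 CPM in the other 4 C9-BACexp mice and 640, 407 and 344 CPM in C57BL/6J replicates 1, 2 and 5. Xist, the RNA of the inactive X chromosome, was at 0.863 and 0.360 CPM in C9-BACexp replicates 1 and 3 and at 711 to 981 CPM in the other 4, and at 0.736 CPM in C57BL/6J replicate 5 against 934 and 888 CPM in replicates 1 and 2. C57BL/6J replicate 5 had the highest level of 57 of the 60 tested interferon-stimulated effectors.

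The human transcripts were read first, since they check the genotype labels and since V1 and V3, unlike V2, start at the exon 1a that crRNA-13 targets. V3 was present in all 6 C9-BACexp mice, at 31.5, 26.8, 12.9, 23.4, 9.34 and 21.996 CPM in replicates 1, 2, 3, 4, 6 and 7, and had no count in any of the 3 C57BL/6J mice. V1 was at 22.3, 14.4, 14.3, 20.3, 18.5 and 26.4 CPM in C9-BACexp mice, and in C57BL/6J mice it was listed with no count in replicates 1 and 2 and with 4 counts (0.109 CPM) in replicate 5. V2 was at 46.0, 29.98, 36.9, 48.0, 47.5 and 47.3 CPM in C9-BACexp mice, and in C57BL/6J mice it had no count in replicates 1 and 2 and 12 counts (0.327 CPM) in replicate 5. Every C9-BACexp library therefore lay far above every C57BL/6J library for each transcript, and C57BL/6J replicate 5 was the single C57BL/6J library with any human count.

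V3 averaged 20.97 ± 8.39 CPM in C9-BACexp mice (SD, n = 6), at least 199-fold above the 0.105 CPM that 3 counts per library would give on average in the 3 C57BL/6J libraries. V1 averaged 19.3 ± 4.71 CPM and V2 42.6 ± 7.46 CPM in C9-BACexp mice (SD, n = 6), and the 3 transcripts summed to 82.9 ± 14.7 CPM. On the log2(CPM + 0.5) scale the genotypes differed by 5.31 for V3, 5.18 for V1 and 6.17 for V2. Each of these had an exact two-sided permutation p of 0.0238 (6 C9-BACexp mice and 3 C57BL/6J mice), the smallest that 84 splits of the mice allow, and 0.0397 after Benjamini-Hochberg adjustment over 5 items. All 3 were also called higher by edgeR's quasi-likelihood test, with adjusted p-values of 4.99e-07, 3.49e-08 and 1.69e-05 for V3, V1 and V2. Because C57BL/6J mice lack the transgene, these tests check the genotype labels and nothing more.

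The estimated make-up of the human RNA varied among the C9-BACexp mice. V3 accounted for 31.6, 37.6, 20.1, 25.5, 12.4 and 22.97% of the reads of the 3 transcripts in replicates 1, 2, 3, 4, 6 and 7, whereas V2 took 42.2 to 63.1% and V1 20.2 to 27.6%. Replicate 2 had the highest V3 share and the lowest V2 share, and replicate 6 the lowest V3 share and the highest V2 share. The shares are of reads and not of molecules, because the counts were not divided by transcript length, so they can be set side by side between mice but not between transcripts.

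**Figure D1:**
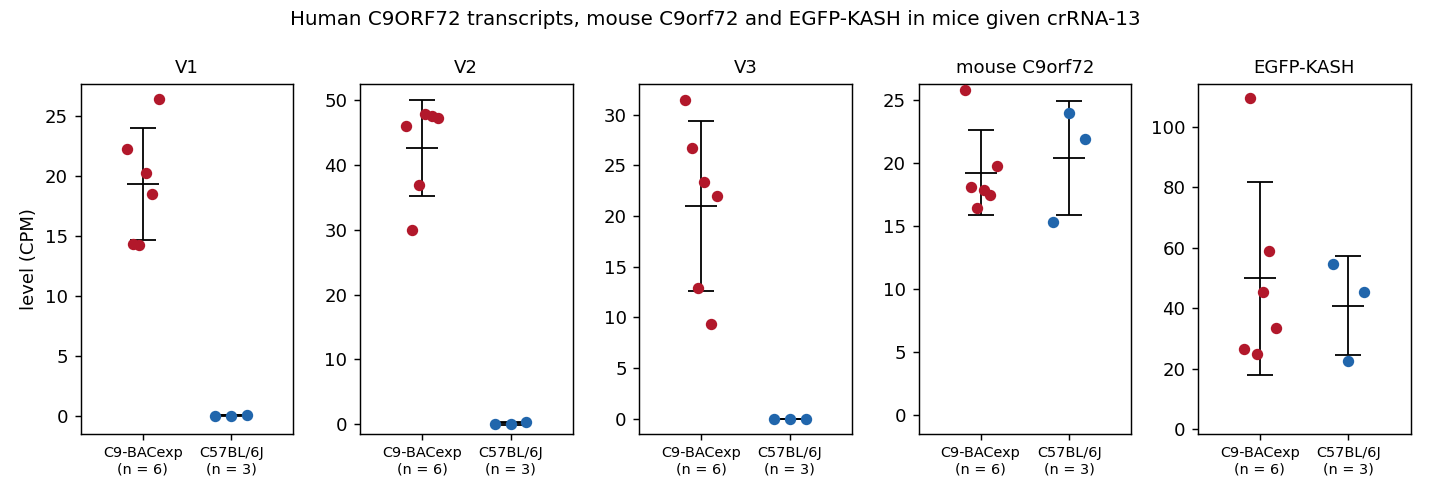
Levels in CPM of the 3 human C9ORF72 transcripts, mouse C9orf72 and EGFP-KASH in the 9 mice given crRNA-13, with C9-BACexp mice (n = 6) left of C57BL/6J mice (n = 3), points for mice and bars for the mean ± SD. V1, V2 and V3 lie between 9.34 and 48.0 CPM in the C9-BACexp mice and at or near 0 in the C57BL/6J mice, while for mouse C9orf72 and EGFP-KASH the genotypes overlap.

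Mouse C9orf72 (chr4:35191282-35226186, minus strand, GRCm39), the endogenous counterpart, was at 25.7, 18.1, 16.4, 17.8, 17.4 and 19.8 CPM in C9-BACexp mice and at 15.3, 23.9 and 21.9 CPM in C57BL/6J mice. The groups overlapped, and the difference of -0.07 on the log2(CPM + 0.5) scale did not pass the exact permutation test (two-sided p = 0.667). EGFP-KASH, the tag used for the sort, was at 24.9 to 109.8 CPM in C9-BACexp mice, with a median of 39.4 CPM, and at 54.6, 22.6 and 45.5 CPM in C57BL/6J mice. Its difference of 0.17 did not pass either (two-sided exact permutation p = 0.786), and the value for C9-BACexp replicate 2, 109.8 CPM, stood above the 59.1 CPM of the next mouse. Without C57BL/6J replicate 2 the mouse C9orf72 difference was 0.05 and that of EGFP-KASH -0.20. In the edgeR fit the log2 fold changes of mouse C9orf72 and EGFP-KASH were -0.09 ± 0.14 and 0.15 ± 0.26 (SE), neither of them called.

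Across all genes, edgeR's quasi-likelihood test with 4 factors of unwanted variation called 235 of 21768 tested (1.08%) (adjusted p under 0.05 with a change of more than 1.2-fold). Of these, 96 were higher in C9-BACexp mice (0.441%), 93 of them mouse genes and the others the 3 human transcripts, and 139 were lower (0.639%), all of them mouse genes. At an unadjusted p under 0.05 there were 1258 higher (5.78%) and 1459 lower genes (6.7%). The called changes were of unequal size, with a median log2 fold change of 0.47 for the higher mouse genes and -1.19 for the lower ones, and 77 of the lower genes but 16 of the higher mouse genes changed by more than 2-fold. Predicted genes made up 10 of the higher and 41 of the lower ones. Called genes were also longer and better expressed than the rest: among those matched to the annotation, the median gene span was 36.05 kb for higher, 42.9 kb for lower and 26.7 kb for all tested genes, and the median level was 40.8, 10.4 and 6.06 CPM.

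The CPM values of the genotypes did not overlap for 20 of the higher and 30 of the lower called mouse genes, whereas among all tested genes this held for 0.9% in the higher and 0.841% in the lower direction. The number of calls depended on single mice. It was 98 without C57BL/6J replicate 5 and 429 without C57BL/6J replicate 1, and between 213 and 344 when any other 1 mouse was left out. Without C57BL/6J replicate 5, 42 of the 232 mouse genes were still called. With no factors of unwanted variation 4 genes were called, V3 and V1 higher and the predicted genes Gm41534 and Gm14015 lower, so that nearly all calls given below rest on the fit with factors. They rest also on adjusting the p-values over 5 comparisons together: adjusted within this comparison alone, 34 genes were called, 16 higher and 18 lower.

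**Figure D2:**
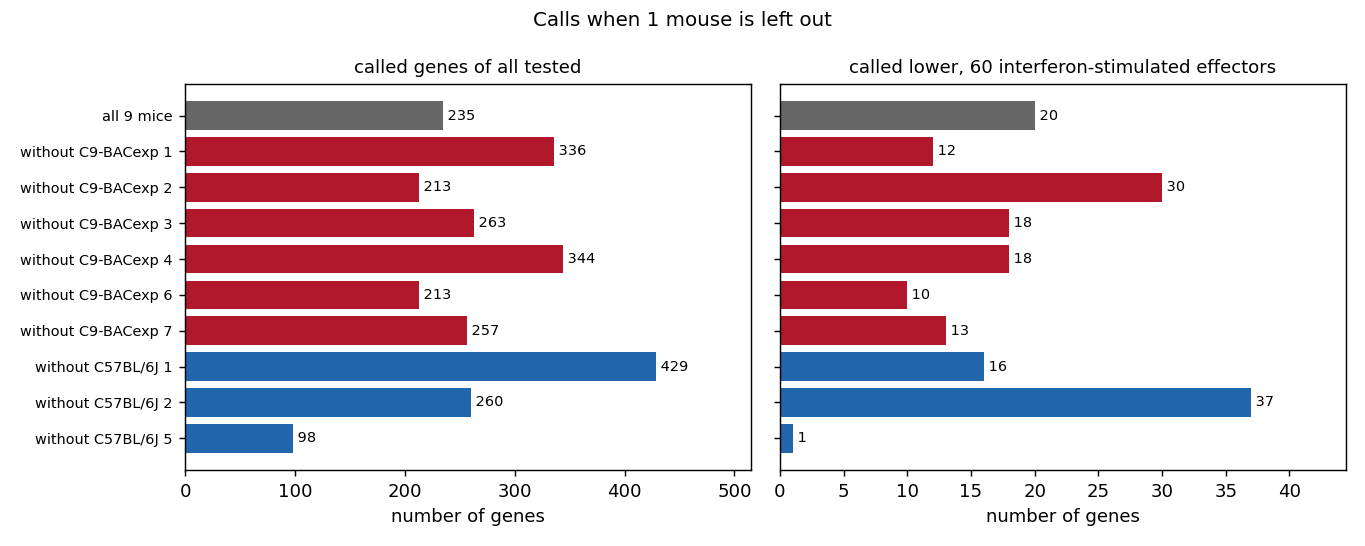
Number of called genes among all tested genes (left panel) and of interferon-stimulated effectors called lower (right panel, 60 to 64 tested), with all 9 mice and with each mouse left out in turn (C9-BACexp mice above C57BL/6J mice, numbers on the axis being replicates). The bars for C57BL/6J replicate 5 are the shortest, at 98 genes and 1 effector.

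The interferon-stimulated effectors formed the largest group of lower genes. Of 65 listed effectors 60 were tested, and 20 were called lower in C9-BACexp mice and none higher, against 0.639% lower among all tested genes. All 60 had a negative log2 fold change and their median was -2.0002, beside a median of -0.00 over all genes. The summed level of the tested effectors was 198, 885, 292, 343, 185 and 153 CPM in C9-BACexp replicates 1, 2, 3, 4, 6 and 7, and 879, 293 and 3001 CPM in C57BL/6J replicates 1, 2 and 5. The sums therefore overlapped, with C9-BACexp replicate 2 at the level of C57BL/6J replicate 1 and C57BL/6J replicate 2 within the range of the other C9-BACexp mice, and 1 C57BL/6J mouse stood far above the rest. Since whole populations of nuclei were sequenced, fewer nuclei of a type and less RNA per nucleus cannot be told apart.

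Ifit3 (chr19:34560899-34566443, plus strand, GRCm39), an interferon-induced protein that binds with other IFIT proteins to foreign RNA, had 0.265, 0.925 and 4.73 CPM as lowest, median and highest level in C9-BACexp mice, and 6.91, 2.15 and 22.4 CPM in C57BL/6J mice. Its log2 fold change was -2.85 ± 0.47 (SE, adjusted p = 0.00195, edgeR), and it was the effector that stayed called whichever mouse was left out, at -2.06 without C57BL/6J replicate 5. C9-BACexp replicate 2 alone among the C9-BACexp mice exceeded a C57BL/6J mouse. Ifi44, a cytoplasmic protein induced by interferon, showed no such overlap, with a lowest, median and highest level of 0, 0.0644 and 0.581 CPM in C9-BACexp mice and with 1.77, 2.38 and 20.4 CPM in C57BL/6J mice. It was called lower with all mice (adjusted p = 0.00858, edgeR) and not without C57BL/6J replicate 5.

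Oas1g, an oligoadenylate synthetase that activates RNase L, had 0, 0.340 and 4.62 CPM as lowest, median and highest in C9-BACexp mice, and 5.90, 0.793 and 18.04 CPM in C57BL/6J mice (log2 fold change -4.17 ± 0.86, adjusted p = 0.00983, edgeR). Rsad2, which encodes viperin, had 0, 0.380 and 2.35 CPM in C9-BACexp mice, and 4.23, 0.653 and 20.5 CPM in C57BL/6J mice (-3.33 ± 0.78, adjusted p = 0.0227, edgeR). Mx1, a dynamin-like GTPase that restricts viruses, had 0, 1.46 and 3.59 CPM in C9-BACexp mice, and 5.68, 5.32 and 65.5 CPM in C57BL/6J mice (-3.38 ± 0.85, adjusted p = 0.0357, edgeR). For Mx1 the genotypes did not overlap, whereas for Oas1g and Rsad2 C57BL/6J replicate 2 lay below C9-BACexp replicate 2. Without C57BL/6J replicate 5 the log2 fold changes were -3.60, -2.23 and -2.26 for Oas1g, Rsad2 and Mx1 and none was called, and the calls of Rsad2 and Mx1 also ended without C9-BACexp replicate 1, at -2.61 and -2.98.

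Eif2ak2, which encodes the double-stranded RNA-activated kinase PKR that blocks translation, had 3.12, 4.69 and 16.1 CPM as lowest, median and highest level in C9-BACexp mice and 15.8, 9.28 and 94.4 CPM in C57BL/6J mice. The log2 fold change was -2.30 ± 0.47 (adjusted p = 0.00932, edgeR), and -1.13 and not called without C57BL/6J replicate 5. Phf11d, an interferon-induced gene of the PHD finger family, was lower as well (-3.47 ± 0.79, adjusted p = 0.0205, edgeR), at 0.0332 to 2.24 CPM in C9-BACexp mice and at 2.65, 1.12 and 20.8 CPM in C57BL/6J mice. Its call also ended without C57BL/6J replicate 5 (-2.21) and without C9-BACexp replicates 3 (-3.03) or 6 (-3.23). The other effectors called lower, listed after their values were seen, were Ifit1, Ifit2, Ifit3b, Ifih1, Mx2, Oas2, Herc6, Parp10, Parp12, Dtx3l, Rtp4, Samd9l and Rnf213, with log2 fold changes between -3.09 (Ifit1) and -1.09 (Herc6). Of these, Rnf213, a giant ubiquitin ligase linked to vascular disease, was the most abundant, at 13.5 to 192 CPM in C9-BACexp mice and at 158, 57.1 and 668 CPM in C57BL/6J mice.

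The number of effectors called lower was 1 without C57BL/6J replicate 5, with a median log2 fold change of -1.08, and 37 without C57BL/6J replicate 2. It was 12, 10 and 13 without C9-BACexp replicates 1, 6 and 7, and 30 without replicate 2. With no factors it was 0, and 58 of the 60 fold changes were then negative. In the other genotype comparisons the median log2 fold change of the same 60 effectors was -0.59 with NTG, where none was called, and -0.64 with EGFP-KASH only, where 2 were called lower. Their summed level was 121 to 168 CPM in C9-BACexp and 129 to 520 CPM in C57BL/6J mice given NTG, and 125 to 140.5 CPM in C9-BACexp and 108 to 258 CPM in C57BL/6J mice with EGFP-KASH only. The test of the difference between the crRNA-13 and NTG genotype effects called none of the 60.

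The steps before the effectors differed in kind. Of 13 listed interferon ligands and receptors 6 were tested, and none was called. All 6 were receptor subunits, so the levels of the ligands themselves were not tested. Ifnar1, a subunit of the type I interferon receptor, had a log2 fold change of 0.02 ± 0.07, with 30.03 to 34.4 CPM in C9-BACexp mice and 29.8, 30.7 and 32.4 CPM in C57BL/6J mice. Among 19 tested nucleic acid sensors and adaptors 4 were called lower, and the list's median was -0.80. Ddx58, which encodes the RNA sensor RIG-I, had 1.13, 2.84 and 7.11 CPM as lowest, median and highest in C9-BACexp mice and 7.60, 3.45 and 42.1 CPM in C57BL/6J mice (-2.08 ± 0.45, adjusted p = 0.0146, edgeR). The others were Ifih1, which encodes MDA5 (-2.09), Dhx58, which encodes the related helicase LGP2 (-1.58), and Samhd1, which degrades deoxynucleotides (-0.80). Ifih1 is counted among the effectors too. Without C57BL/6J replicate 5 none of the sensors was called, with Ddx58, Ifih1, Dhx58 and Samhd1 at -0.85, -0.92, -0.94 and -0.41, and Dhx58 and Ifih1 also lost their calls without C9-BACexp replicates 1 (-1.31) and 6 (-1.93).

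Among 23 tested genes of JAK, STAT and IRF signaling, 3 were called lower, Stat2 and Irf1 among them, and the median was -0.24. Stat2, a transcription factor of type I interferon signaling, had 36.5, 42.4 and 83.5 CPM as lowest, median and highest level in C9-BACexp mice, and 76.6, 44.7 and 158 CPM in C57BL/6J mice (-0.97 ± 0.25, adjusted p = 0.0380, edgeR). Irf1, a transcription factor induced by interferons, had 2.09, 2.34 and 7.44 CPM in C9-BACexp mice, and 5.71, 3.31 and 14.2 CPM in C57BL/6J mice (-1.40 ± 0.35, adjusted p = 0.0315, edgeR). C9-BACexp replicate 2 was the highest C9-BACexp mouse for both genes, and C57BL/6J replicate 2 lay within the C9-BACexp range. Neither gene was called without C57BL/6J replicate 5, where Stat2 and Irf1 were at -0.37 and -0.63. The calls also ended without C9-BACexp replicates 1, 4, 6 or 7 for Stat2 (-0.95 to -0.90) and without replicates 6 or 7 for Irf1 (-1.36 and -1.31).

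Of 26 tested genes of MHC class I antigen presentation 25 had a negative fold change, with a median of -0.95, and the nonclassical genes H2-T22 and H2-T24 were called lower. H2-T22 had 7.75, 8.86 and 14.7 CPM as lowest, median and highest in C9-BACexp mice, and 13.6, 11.3 and 32.1 CPM in C57BL/6J mice (-0.94 ± 0.24, adjusted p = 0.0365, edgeR). H2-T24 had 0.543, 1.43 and 4.69 CPM in C9-BACexp mice, and 6.15, 2.15 and 16.9 CPM in C57BL/6J mice (-2.06 ± 0.46, adjusted p = 0.0187, edgeR). Both calls ended without C57BL/6J replicate 5, at -0.37 and -1.27, that of H2-T22 also without C9-BACexp replicates 1, 3, 6 or 7 (-0.93 to -0.88) and that of H2-T24 without replicate 6 (-1.95). Genes of this family share sequence, so that reads of 1 member may have been counted for another. B2m, the light chain common to the class I molecules, was not called, with a log2 fold change of -0.89 ± 0.36. The 5 interferon lists together held 131 tested genes, of which 28 were called lower (21.4%) and none higher, and they accounted for 20.1% of the 139 lower genes.

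**Figure D3:**
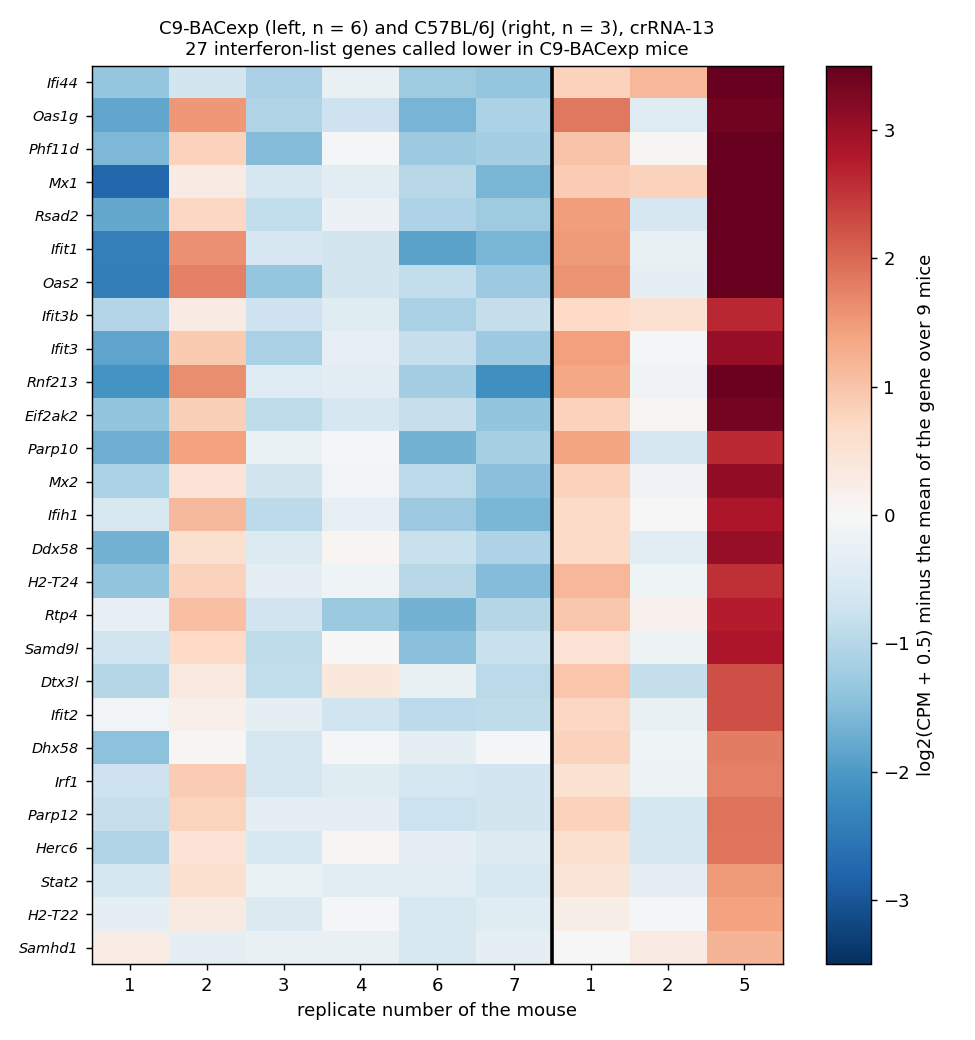
Levels of 27 interferon-list genes called lower, as log2(CPM + 0.5) minus each gene's mean over the 9 mice, with the 6 C9-BACexp mice left of the line and the 3 C57BL/6J mice right of it. C57BL/6J replicate 5 has the highest value of all 27 genes, and C9-BACexp replicate 2 lies above the gene's mean for 25 of them.

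Markers of immune cells moved with the effectors in part. Ptprc, which encodes the leukocyte antigen CD45, was at 5.17 CPM in C9-BACexp replicate 2 and at 0.232 to 0.766 CPM in the other 5 C9-BACexp mice, and at 5.504 CPM in C57BL/6J replicate 5 against 0.978 and 0.0933 CPM in replicates 1 and 2. Ptprc was thus high in 2 of the 3 mice with the highest effector sums, and C57BL/6J replicate 1, at the effector level of C9-BACexp replicate 2, was not high for it. Of 28 listed markers of infiltrating immune cells, 7 passed the filter for low counts and were tested, and none of these was called (median log2 fold change -1.27). Among them Cd74, a chaperone of MHC class II, was at 0.0900 to 1.21 CPM in C9-BACexp mice and at 0.789, 0.140 and 3.32 CPM in C57BL/6J mice. Cd4, a co-receptor of helper T cells, ran the other way, at 0.270 to 1.72 CPM in C9-BACexp mice and at 0.126, 0.280 and 0.381 CPM in C57BL/6J mice, and of the 7 markers 5 had a negative and 2 a positive fold change. All 28 microglial markers were tested and none was called, with a median of -0.67. Their summed level was 70.3 to 140.3 CPM in C9-BACexp mice and 96.0, 107 and 164 CPM in C57BL/6J mice. The part of immune cells in the effector levels was not tested.

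Among the other glial lists, 3 of 24 homeostatic astrocyte markers were called lower and none higher, with a median of -0.38. With NTG the list's median was -0.53 and 6 members were called lower, and with EGFP-KASH only it was -0.24 and 1 was called higher. The summed level was 1123 to 1451 CPM in C9-BACexp mice and 1114, 1665 and 1631 CPM in C57BL/6J replicates 1, 2 and 5. C57BL/6J replicate 1 thus lay below every C9-BACexp mouse. Aqp4, the water channel of astrocyte end-feet, had 1.53, 2.29 and 2.56 CPM as lowest, median and highest in C9-BACexp mice, and 3.75, 3.64 and 7.14 CPM in C57BL/6J mice, with no overlap (-1.06 ± 0.24, adjusted p = 0.0181, edgeR). Aldh1l1, an enzyme of folate metabolism, was at 6.11 to 15.8 CPM in C9-BACexp mice and at 15.7, 26.8 and 20.6 CPM in C57BL/6J mice (-0.78 ± 0.19, adjusted p = 0.0263, edgeR), and the zinc transporter Slc39a12 at 4.87 to 13.04 CPM in C9-BACexp mice and at 7.73, 22.02 and 16.2 CPM in C57BL/6J mice (-1.04 ± 0.27, adjusted p = 0.0380, edgeR). Leaving out C57BL/6J replicate 5 ended all 3 calls, at -0.74, -0.79 and -0.98. Without C57BL/6J replicate 2 Aldh1l1 and Slc39a12 were at -0.59 and -0.73, neither of them called. The Aldh1l1 call ended as well without C9-BACexp replicate 1 (-0.60), and that of Slc39a12 without replicates 2, 3 or 7 (-0.93, -1.03 and -0.95). None of 19 reactive astrocyte genes was called (median -0.75). Gfap, the astrocyte intermediate filament, was highest in the same mice as the effectors, at 14.6 CPM in C9-BACexp replicate 2 and at 15.1 and 21.1 CPM in C57BL/6J replicates 1 and 5.

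Of 30 oligodendrocyte markers 28 had a positive fold change, with a median of 0.37, and Cnp was called higher. The summed level of the list was 8770 and 4934 CPM in C9-BACexp replicates 1 and 2 and 1702 to 2582 CPM in the other 4, and 3379, 2364 and 2404 CPM in C57BL/6J mice. Cnp, an enzyme of myelin-forming cells, was at 160.2 and 49.1 CPM in C9-BACexp replicates 1 and 2, at 14.3 to 26.4 CPM in the other 4, and at 25.02, 15.7 and 17.5 CPM in C57BL/6J mice (0.70 ± 0.18, adjusted p = 0.0410, edgeR). The Cnp call ended without C9-BACexp replicates 1 (0.24) or 2 (0.56) and without C57BL/6J replicates 2 (0.53) or 5 (0.64). Without both of these C9-BACexp mice the log2 fold change of Cnp was -0.05 and the list's median -0.27. With NTG and with EGFP-KASH only the list's medians were 1.14 and 1.03, and 24 and 13 of its members were called higher. Ptprz1, a receptor phosphatase of oligodendrocyte precursors, was called lower (-0.68 ± 0.17, adjusted p = 0.0364, edgeR), at 24.4 to 40.2 CPM in C9-BACexp mice and at 33.8, 55.8 and 67.0 CPM in C57BL/6J mice, and its call ended without C57BL/6J replicates 2 (-0.60) or 5 (-0.47) and without C9-BACexp replicates 1 (-0.62) or 2 (-0.61).

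Mfsd2a, the lipid transporter of the endothelium at the blood-brain barrier, was the 1 called gene among 22 endothelial markers. It had 1.15, 1.30 and 1.53 CPM as lowest, median and highest in C9-BACexp mice, and 2.43, 3.96 and 2.64 CPM in C57BL/6J mice, with no overlap (-1.17 ± 0.31, adjusted p = 0.0472, edgeR). Its call was lost in 8 of the 9 leave-1-mouse-out fits, the exception being that without C9-BACexp replicate 1, and the log2 fold change stayed between -1.30 and -0.95. No mural cell or fibroblast marker was called.

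Among neuronal lists, the pan-neuronal genes Elavl3 and Gap43 were called higher (2 of 22). Elavl3, a neuronal RNA-binding protein, had 193, 250 and 264 CPM as lowest, median and highest in C9-BACexp mice, and 227, 190.5 and 149 CPM in C57BL/6J mice (0.33 ± 0.06, adjusted p = 0.00491, edgeR), and 0.16 with no call without C57BL/6J replicate 5. Gap43, a growth-cone protein, had 56.3, 77.8 and 81.5 CPM in C9-BACexp mice, and 56.4, 36.3 and 55.3 CPM in C57BL/6J mice (0.56 ± 0.14, adjusted p = 0.0390, edgeR). The lowest C9-BACexp mouse for Gap43, replicate 2, lay at the level of C57BL/6J replicate 1, and its call ended without C57BL/6J replicate 2 (0.37) and without C9-BACexp replicates 1, 3, 6 or 7 (0.52 to 0.54).

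Of 27 tested deep-layer markers Nxph4 was called, and it had the largest log2 fold change of the higher genes named by the rule. Nxph4 (chr10:127361339-127370463, minus strand, GRCm39), a neurexophilin that binds neurexins, had 0.720, 1.54 and 3.72 CPM as lowest, median and highest in C9-BACexp mice, and 0.284, 0.187 and 0.109 CPM in C57BL/6J mice. The groups did not overlap (3.09 ± 0.70, adjusted p = 0.0198, edgeR), and the call ended without C57BL/6J replicate 2 or 5, at 3.06 and 2.77. With NTG the same gene averaged 0.897 ± 0.561 CPM in C9-BACexp mice (SD, n = 6) and 0.329 ± 0.284 CPM in C57BL/6J mice (SD, n = 5), and with EGFP-KASH only 0.919 ± 0.620 CPM (SD, n = 3) and 0.820 ± 0.411 CPM (SD, n = 4). It was not called in those comparisons.

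None of 25 striatal projection neuron markers was called, although 24 had a positive fold change and 11 an unadjusted p under 0.05 in that direction, against 5.78% of all genes. Their median log2 fold change was 0.95, with 1.41 for NTG and 0.29 for EGFP-KASH only. Drd2, the D2 dopamine receptor, was at 33.7, 49.6, 14.0, 3.16, 15.1 and 30.7 CPM in C9-BACexp mice, and at 3.69, 2.52 and 6.38 CPM in C57BL/6J mice. Adora2a, the adenosine receptor of the same cells, had 0.806, 5.20 and 13.6 CPM as lowest, median and highest in C9-BACexp mice, and 0.316, 0.187 and 1.23 CPM in C57BL/6J mice (4.70 ± 1.27, adjusted p = 0.0552, edgeR). C9-BACexp replicate 4 lay within the C57BL/6J range for both genes, and the other 5 C9-BACexp mice lay above it. The part of striatal tissue in the dissections was not tested. No upper-layer, excitatory or interneuron marker was called.

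Calls in further lists were few. Jund, an AP-1 transcription factor, was higher (0.55 ± 0.15, adjusted p = 0.0481, edgeR), at 6.93 to 12.3 CPM in C9-BACexp mice and at 7.86, 5.18 and 6.02 CPM in C57BL/6J mice, and was the 1 called among 28 immediate early genes, whose median was 0.50 here, -0.08 with NTG and -0.28 with EGFP-KASH only. The list's summed level overlapped between genotypes. It was 555 to 1809 CPM in C9-BACexp mice, highest in replicate 2, and 865, 607 and 781 CPM in C57BL/6J mice. Hsp90aa1, an inducible chaperone, was higher (0.30 ± 0.07, adjusted p = 0.0350, edgeR), at 63.9 and 50.5 CPM in C9-BACexp replicates 1 and 2, at 29.3 to 37.0 CPM in the other 4 and at 33.3, 31.4 and 29.9 CPM in C57BL/6J mice, and was at 0.02 without those 2 C9-BACexp mice. Calls of Jund and Hsp90aa1 both ended without C57BL/6J replicate 2 (0.40 and 0.28) and without C57BL/6J replicate 5 (0.51 and 0.25), and also without C9-BACexp replicates 1 (0.46 and 0.16) or 2 (0.49 and 0.21), with Jund further at 0.51 and 0.56 without replicates 6 and 7.

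No called gene was found among 13 members of the C9orf72 complex and its Rab partners, 50 SR proteins and hnRNPs, 37 genes of ALS and FTD or 25 p53 and DNA damage genes, all with a median between -0.08 and 0.03. The same held for extracellular matrix genes, glutamate and GABA receptors, voltage-gated channels, ribosomal proteins, respiratory chain subunits, nuclear long non-coding RNAs and nuclear envelope genes, and for complement genes, whose median was -0.84. Srrm2, a splicing scaffold, and Dctn1, a dynactin subunit mutated in motor neuron disease, had adjusted p-values of 0.0385 and 0.0265 (edgeR), but their changes stayed below the 1.2-fold limit. The autophagy gene Wipi1 and the axon guidance genes Unc5b, Efnb3 and Epha4 are given with the genes shared by the 3 genotype comparisons.

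**Figure D4:**
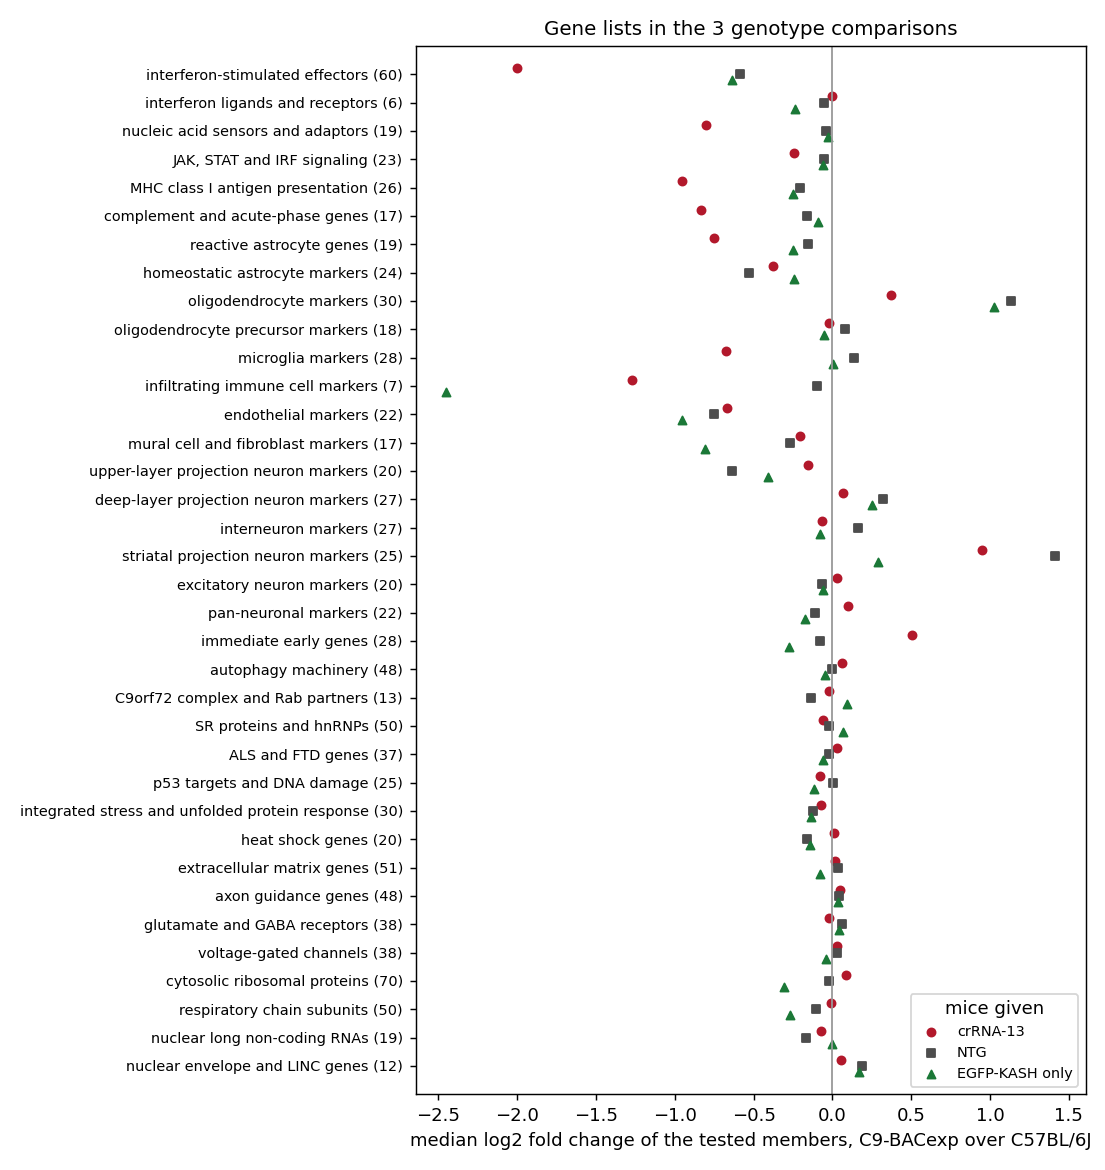
Median log2 fold change of the tested members of each gene list, C9-BACexp over C57BL/6J, in mice given crRNA-13 (circles), NTG (squares) and EGFP-KASH only (triangles), with the number of tested members in parentheses. With crRNA-13 the interferon-stimulated effectors lie farthest below 0, at -2.0002, and the striatal markers farthest above it, at 0.95.

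Several of the genes with the largest changes outside the lists were at or near 0 in C9-BACexp mice. Acss3 (chr10:106769375-106959635, minus strand, GRCm39), a mitochondrial acyl-CoA synthetase, had 0.290, 0.356 and 0.431 CPM as lowest, median and highest in C9-BACexp mice, and 7.79, 7.74 and 0.736 CPM in C57BL/6J mice. The log2 fold change was -3.91 ± 0.77 (adjusted p = 0.00720, edgeR), and the call held whichever mouse was left out, at -4.39 without C57BL/6J replicate 5, the low C57BL/6J mouse. With NTG, Acss3 was also called lower, at 0.558 ± 0.524 CPM in C9-BACexp mice (SD, n = 6) and 4.57 ± 2.79 CPM in C57BL/6J mice (SD, n = 5). With EGFP-KASH only its log2 fold change was -1.36 and it was not called (adjusted p = 0.459, edgeR). The claudin-family gene Cldn34c2 (chrX:122485983-122514222, plus strand, GRCm39) was at 0 to 0.255 CPM in C9-BACexp mice and at 7.41, 13.9 and 0.381 CPM in C57BL/6J mice (adjusted p = 0.0111, edgeR). Here too C57BL/6J replicate 5 was the low mouse of its group, so that with crRNA-13 the high level was seen in 2 mice. In C57BL/6J mice given NTG Cldn34c2 averaged 0.0205 ± 0.0305 CPM (SD, n = 5). Its log2 fold change between genotypes was 4.38 with NTG and -5.84 with EGFP-KASH only, opposite in direction, and it was called in neither.

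Other large falls were Gbp10 and Gvin3, GTPases of interferon-inducible families that the lists did not hold. Gbp10 was at 0 to 6.30 CPM in C9-BACexp mice and at 4.35, 3.41 and 22.3 CPM in C57BL/6J mice (-4.20 ± 0.98, adjusted p = 0.0227, edgeR), and Gvin3 at 0.0332 to 2.90 CPM in C9-BACexp mice and at 0.820, 1.91 and 5.31 CPM in C57BL/6J mice (-3.18 ± 0.70, adjusted p = 0.0164, edgeR). Both were highest in C57BL/6J replicate 5, and without it their calls ended, at -3.46 and -2.29, and Gbp10 was not called without C9-BACexp replicate 1 (-3.02).

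Among the falls of smallest p, Itpr2 (chr6:146009797-146403721, minus strand, GRCm39), an inositol trisphosphate receptor that releases calcium from the endoplasmic reticulum, held its call whichever mouse was left out. Itpr2 had 17.4, 19.3 and 21.9 CPM as lowest, median and highest in C9-BACexp mice, and 21.6, 41.9 and 41.8 CPM in C57BL/6J mice (-0.83 ± 0.16, adjusted p = 0.00591, edgeR). C57BL/6J replicate 1 lay within the C9-BACexp range. Pnpt1, a ribonuclease of mitochondria, was at 20.2 to 31.5 CPM in C9-BACexp mice and at 27.5, 35.2 and 55.6 CPM in C57BL/6J mice (-0.58 ± 0.09, adjusted p = 0.00142, edgeR). Cdr1os, a long non-coding RNA of the Cdr1 locus, was at 116 to 203 CPM in C9-BACexp mice and at 178, 235 and 287 CPM in C57BL/6J mice (-0.53 ± 0.09, adjusted p = 0.00318, edgeR). Both were highest in C57BL/6J replicate 5 and were not called without it, at -0.30 and -0.37.

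Among the rises, Galnt2 (chr8:124958099-125072466, plus strand, GRCm39), an enzyme that starts mucin-type O-glycosylation, was the gene of smallest p. It had 121, 137 and 168 CPM as lowest, median and highest in C9-BACexp mice, and 116, 108 and 101 CPM in C57BL/6J mice, with no overlap. Its log2 fold change of 0.40 ± 0.07 (adjusted p = 0.00389, edgeR) held its call whichever mouse was left out, with values of 0.35 to 0.45. Fxyd6, a regulator of the sodium pump, also did not overlap, with 32.6, 45.2 and 50.7 CPM in C9-BACexp mice and 30.8, 19.2 and 27.8 CPM in C57BL/6J mice (0.78 ± 0.15, adjusted p = 0.00624, edgeR), and lost its call without C57BL/6J replicate 2 (0.59). In the NTG and EGFP-KASH only comparisons neither gene was called, with log2 fold changes of 0.17 and 0.10 for Galnt2 and of 0.21 and 0.01 for Fxyd6.

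The rises of Snx31, Rasl12 and Ccdc74a were without overlap and low in level. Snx31, a sorting nexin, was at 0.968 to 2.43 CPM in C9-BACexp mice and at 0.379, 0.233 and 0.272 CPM in C57BL/6J mice (2.42 ± 0.65, adjusted p = 0.0498, edgeR). Rasl12, a Ras-like GTPase, was at 2.03 to 11.6 CPM in C9-BACexp mice and at 1.33, 1.21 and 1.12 CPM in C57BL/6J mice (1.67 ± 0.39, adjusted p = 0.0241, edgeR). Ccdc74a, a coiled-coil protein gene, was at 3.96 to 6.84 CPM in C9-BACexp mice and at 3.28, 1.12 and 2.02 CPM in C57BL/6J mice (1.21 ± 0.28, adjusted p = 0.0203, edgeR). Leaving out C57BL/6J replicate 2 or 5 ended the 3 calls, with values of 2.31 and 2.34 for Snx31, 1.66 and 1.60 for Rasl12 and 0.92 and 1.17 for Ccdc74a. Leaving out C57BL/6J replicate 1 ended those of Snx31 (2.62) and Rasl12 (1.74), and the calls also ended without C9-BACexp replicates 3, 6 or 7 for Snx31 (2.41, 2.44 and 2.24) and without replicate 1 for Rasl12 (1.36).

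For Gdpd5, Cystm1, Sync, Efcc1, Ehmt2 and Nacad the genotypes overlapped. Gdpd5, a membrane phosphodiesterase that acts in neuronal differentiation, was at 269 CPM in C9-BACexp replicate 2 and at 81.1 to 99.9 CPM in the other 5, and at 86.7, 62.7 and 54.4 CPM in C57BL/6J mice (0.74 ± 0.17, adjusted p = 0.0199, edgeR), and was not called without C9-BACexp replicate 2 (0.44) or without C57BL/6J replicates 2 (0.69) or 5 (0.59). Cystm1, a small membrane protein gene, was at 139 CPM in C9-BACexp replicate 1 and at 26.2 to 67.4 CPM in the other 5, and at 31.2, 19.9 and 21.1 CPM in C57BL/6J mice (1.105 ± 0.26, adjusted p = 0.0230, edgeR), and was not called without C9-BACexp replicate 1 (0.82) or without C57BL/6J replicates 2 (0.97) or 5 (1.01). Sync, an intermediate filament protein gene, and Efcc1, a gene of an EF-hand protein, rose with log2 fold changes of 1.62 ± 0.36 and 0.88 ± 0.19 (SE). Ehmt2, a histone H3 methyltransferase, and Nacad rose by less (0.34 ± 0.07 and 0.43 ± 0.08), and the calls of Sync, Efcc1, Ehmt2 and Nacad ended without C57BL/6J replicate 5, at 1.40, 0.62, 0.25 and 0.30. That of Sync ended also without C57BL/6J replicate 1 (1.56) or C9-BACexp replicate 3 (1.35), and that of Efcc1 without C57BL/6J replicate 2 (0.82).

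Apart from the 3 human transcripts, 12 genes were called whichever 1 mouse was left out, 5 of them predicted genes. The 7 with other symbols were Acss3, Cldn34c2, Galnt2, Ifit3 and Itpr2, given above, and Ranbp9 and Slc16a9, named here after their values were seen. Ranbp9, a scaffold protein of a ubiquitin ligase complex, was at 122 to 140 CPM in C9-BACexp mice and at 167, 158 and 176 CPM in C57BL/6J mice (-0.36 ± 0.07, adjusted p = 0.0102, edgeR). Slc16a9, a monocarboxylate transporter family member, was at 0.0968 to 0.265 CPM in C9-BACexp mice and at 0.947, 3.17 and 1.14 CPM in C57BL/6J mice (-3.17 ± 0.58, adjusted p = 0.00430, edgeR). Neither gene's groups overlapped. With NTG, Ranbp9 was at -0.28 and Slc16a9 at -1.37.

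The genotype differences were then set beside those with NTG and with EGFP-KASH only. Among the 93 higher mouse genes, 86 were also positive with NTG (92.5%, against 51.9% of all genes) and 54 were called higher there, where 4.01% of all genes were called higher. With EGFP-KASH only, 78 were positive (83.9%, against 46.4% of all genes), 31 were called higher (1.59% of all genes) and 3 were called lower. Among the 139 lower genes, 114 were negative with NTG (82.0%, against 48.1%) and 40 were called lower (2.59% of all genes) and 2 higher, while 103 were negative with EGFP-KASH only (74.1%, against 53.6%) and 10 were called lower (1.27% of all genes) and 1 higher. The 3 comparisons share no library, but the factors of unwanted variation were estimated over all 27.

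In all, 36 mouse genes were called in the same direction in all 3 genotype comparisons, 28 higher and 8 lower, a set picked after the values were seen. Unc5b, a netrin receptor that guides axons, was at 93.1 and 46.9 CPM in C9-BACexp replicates 1 and 2, at 13.9 to 29.1 CPM in the other 4, and at 21.7, 16.4 and 16.0 CPM in C57BL/6J mice (0.73 ± 0.14, adjusted p = 0.00580, edgeR). With NTG it averaged 32.0 ± 7.65 CPM in C9-BACexp mice (SD, n = 6) and 16.9 ± 8.95 CPM in C57BL/6J mice (SD, n = 5), and with EGFP-KASH only 33.0 ± 7.16 CPM (SD, n = 3) and 18.1 ± 7.52 CPM (SD, n = 4). Efnb3, an ephrin ligand, Wipi1, a protein of early autophagosomes, and Sned1, a matrix protein, were higher by 0.70, 0.55 and 0.75 on the log2 scale. Phldb1, a microtubule-anchoring protein, was at 396 and 352 CPM in C9-BACexp replicates 1 and 2, at 158 to 175 CPM in the other 4, and at 196, 131 and 110 CPM in C57BL/6J mice (0.62 ± 0.12, adjusted p = 0.00645, edgeR). For these genes the rise with crRNA-13 leaned on the 2 C9-BACexp mice that were also high in myelin genes: without both, Unc5b, Efnb3, Wipi1, Sned1 and Phldb1 were at 0.15, 0.26, 0.25, 0.39 and 0.23 and none was called.

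Bahcc1, a chromatin reader, and Srcin1, a synaptic inhibitor of Src, did not show these high values in C9-BACexp replicate 1. Bahcc1 had 33.3, 37.2 and 46.3 CPM as lowest, median and highest in C9-BACexp mice, and 31.8, 32.5 and 23.3 CPM in C57BL/6J mice, with no overlap (0.42 ± 0.08, adjusted p = 0.00582, edgeR), and was at 0.26 and not called without C57BL/6J replicate 5. Srcin1 was at 470.3 to 802 CPM in C9-BACexp mice and at 564, 477 and 372 CPM in C57BL/6J mice (0.33 ± 0.07, adjusted p = 0.00784, edgeR), and its call ended without C57BL/6J replicate 5 (0.17) or C9-BACexp replicate 2 (0.23). Among the 8 lower genes were Epha4, an ephrin receptor (-0.35 ± 0.08), the ubiquitin ligase Cop1 (-0.35 ± 0.07) and Acsl4, which activates long-chain fatty acids (-0.46 ± 0.09). Cop1 was at 63.4 to 93.9 CPM in C9-BACexp mice and at 88.9, 88.8 and 122 CPM in C57BL/6J mice, and without C57BL/6J replicate 5 Epha4, Cop1 and Acsl4 were at -0.30, -0.20 and -0.12 and not called. Of the 36 genes, 3 were still called with crRNA-13 without C57BL/6J replicate 5, 7 without C9-BACexp replicates 1 and 2 together and none without factors, while all 36 kept their sign without C57BL/6J replicate 5 and without factors and 33 kept it without the 2 C9-BACexp mice.

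**Figure D5:**
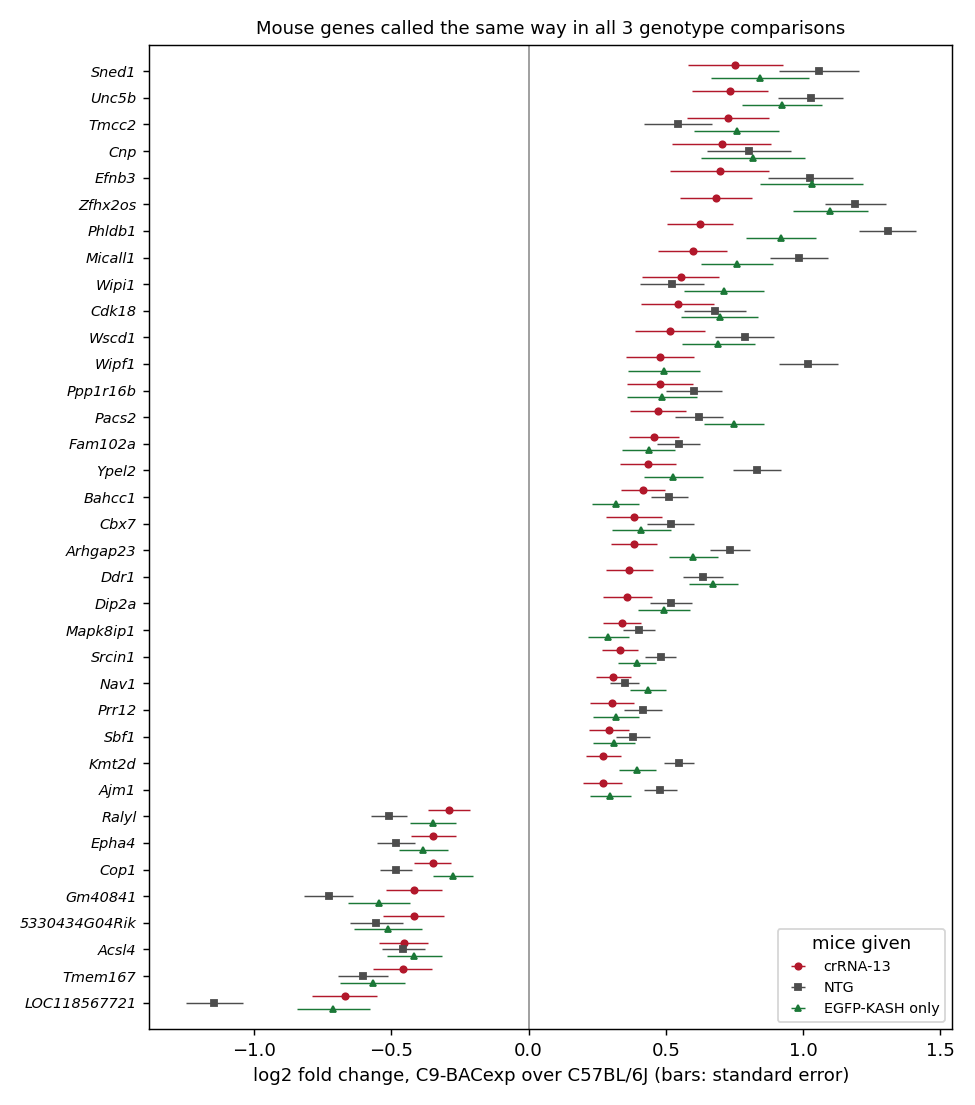
Log2 fold change, C9-BACexp over C57BL/6J, of the 36 mouse genes called in the same direction in all 3 genotype comparisons, in mice given crRNA-13 (circles), NTG (squares) and EGFP-KASH only (triangles), with bars for the standard error. The 28 higher genes lie right of 0 and the 8 lower genes left of it in each comparison, since that is how they were chosen, and for 34 of the 36 the value with NTG is farther from 0 than that with crRNA-13.

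Whether the genotype difference itself changed with the treatment was tested as an interaction. With crRNA-13 minus NTG, 1 gene of 21768 was called (0.00459%), the predicted gene Gm14296, and 2277 had an unadjusted p under 0.05. With crRNA-13 minus EGFP-KASH only, 1 gene was called as well, the predicted gene Gm31298. The larger numbers of genes called with NTG, 1435 (6.59%), and with EGFP-KASH only, 623 (2.86%), than with crRNA-13 therefore do not by themselves show that single genes differed between treatments, and the 3 comparisons held different numbers of mice. Without C9-BACexp replicate 1 the interaction with NTG called 80 genes, and without C57BL/6J replicates 2 and 5, each in turn, 16 and 17. Gm14296 was not among the genes called without C9-BACexp replicate 1 or without C57BL/6J replicate 5.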

How the data were processed

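Nuclear RNA-seq of sorted EGFP-KASH nuclei was analysed from 1 table of 39338 genes and 27 libraries. The authors aligned reads with Salmon 1.10.0 to GRCm39 transcripts, spliced and unspliced, with 3 human C9ORF72 transcripts and EGFP-KASH added, and deposited length-scaled expected counts made in R 4.3.1. These estimated counts were rounded to whole numbers.

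In R 4.3.3, edgeR 4.0.16 (filterByExpr, minimum count 10, minimum total 15, TMM) fitted 6 groups with 4 RUVr factors by the robust quasi-likelihood test over 21768 genes. p-values were adjusted by Benjamini-Hochberg over 5 pairwise comparisons together, with calls made at adjusted p under 0.05 and more than 1.2-fold. Differences between genotype effects were adjusted within each. The study used limma-trend, tried here (limma 3.58.1) with DESeq2 1.42.0 as alternatives. Human transcripts, EGFP-KASH and mouse C9orf72 were tested by exact permutation on log2(CPM + 0.5). CPM used TMM-scaled library totals, of 21784030 to 36028217 counts. Limits of counting cover counting error only. The scripts were tested on simulated data.

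Genes named were the added sequences, mouse C9orf72, the 10 largest and the 10 smallest-p rises and falls (calls averaging 1 CPM or more, predicted symbols left out), and up to 4 called members of each of 37 lists of smallest p, or the 2 of smallest p where none was called. Members and lists were chosen with earlier results of these data known. Each mouse was left out in turn. Each library is 1 mouse. The study describes the 2 genotypes as littermates and its groups as balanced for sex and litter, but the litter of single mice is not given and was not modeled. Permutation p-values measure the spread between these mice. The edgeR p-values measure the spread left after the 4 factors were taken out, in a fit over all 6 groups. A few genes that meet the rule for named genes are not reported here.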

Additional observations from a re-analysis of the deposited data

Results flagged for a closer look

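Of 77 measures examined in the 6 C9-BACexp mice given crRNA-13, 7 had 1 mouse whose gap to the next was large for the group's range, on the log2 scale (chance alone gives about 1 in 20 groups). C9-BACexp replicate 2 stood high for the interferon-inducible genes Oas1g (4.62 CPM), Gvin3 (2.90 CPM) and Eif2ak2 (16.1 CPM) and for Gdpd5 (269 CPM). C9-BACexp replicate 1 stood high for Rasl12 (11.6 CPM) and low for the summed levels of voltage-gated channels (12986 CPM) and of nuclear long non-coding RNAs (21899 CPM).

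The genotype difference itself passed the edgeR interaction test between treatments for 2 predicted genes. For Gm14296 the crRNA-13 difference was lower than that with NTG (adjusted p = 0.0198): with crRNA-13 it was at 0 CPM in all 6 C9-BACexp mice and at 85.7 CPM in C57BL/6J replicate 5 alone, and with NTG at 53.6 and 54.1 CPM in 2 C9-BACexp mice and at 0 CPM in every C57BL/6J mouse. With EGFP-KASH only it was at 0 CPM in all C9-BACexp mice and at 91.9 CPM in C57BL/6J replicate 4, with 0 CPM in the other 3 C57BL/6J mice. The Gm14296 call was lost without C57BL/6J replicate 5, without C9-BACexp replicate 1, without factors and with the replicate number as a block. For Gm31298 the crRNA-13 difference was higher than that with EGFP-KASH only (adjusted p = 0.00345): it was at 0.839 to 5.54 CPM in C9-BACexp and 0.513 to 0.978 CPM in C57BL/6J mice given crRNA-13, and at 0 to 0.849 CPM in C9-BACexp and 0.542 to 4.22 CPM in C57BL/6J mice with EGFP-KASH only, and no mouse was left out in turn for that test.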

How the results depend on the processing

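The 235 calls with crRNA-13 became 35 with 2 factors, 4 without factors, 3 in the 9 libraries alone without factors, 34 with p-values adjusted within the comparison alone, 48 and 589 by DESeq2 without and with factors, 4 by limma-trend without factors, and 355 without C9-BACexp replicates 1 and 2 together (an alternative chosen after seeing the data). They ranged from 98 to 429 when 1 mouse was left out. Without factors NTG gave 6 calls and EGFP-KASH only 4. The interaction with NTG gave 240 calls by DESeq2, 0 without factors (924 at an unadjusted p under 0.05), 2 without the low count filter, and 1 to 80 when 1 mouse was left out. The genotypes shared 2 replicate numbers, and same-numbered mice did not deviate together (r = -0.025 and -0.032). With the replicate number as a block 194 genes were called, 79 of them among the 235, the interaction gave 0 calls, and mouse C9orf72 turned to 0.062. When 1 mouse was left out the log2 differences ranged from 5.18 to 5.52 for V3, 6.05 to 6.41 for V2 and 5.09 to 5.28 for V1, with adjusted permutation p of 0.0595 or 0.119, since fewer splits remain. EGFP-KASH ranged from -0.20 to 0.42 and mouse C9orf72 from -0.26 to 0.051, with reversals for EGFP-KASH at -0.09 without C9-BACexp replicate 2 and -0.20 without C57BL/6J replicate 2, and for mouse C9orf72 at 0.051 without the last. In edgeR EGFP-KASH ranged from -0.17 to 0.35, with -0.11 and -0.17 without the same mice, and mouse C9orf72 from -0.28 to 0.055, this last without C57BL/6J replicate 2. Without C9-BACexp replicates 1 and 2 together EGFP-KASH was at -0.015, Cnp at -0.052, Ddr1 at -0.0067 and Ppp1r16b at -0.0029. Alternatives were run for 84 called named genes, of which those other than Cnp, Ddr1 and Ppp1r16b kept their direction in each. All 84 kept the call by DESeq2 and 75 by limma-trend when these were given the 4 factors of the edgeR fit. Without factors, 11 kept it by DESeq2, 3 by limma-trend and 2 by edgeR. In edgeR with factors, 14 kept it without C57BL/6J replicate 5. The causes were not tested.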
